A study of Mus musculus with 4 samples.

Results

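The synaptonemal complex and chromosome axis genes are 10 mouse genes taken by name: Sycp1, Sycp2, Sycp3, Syce1, Syce2, Syce3, Tex12, Sycp2l, Hormad1 and Hormad2. All 10 were found among the 21887 protein-coding genes of RefSeq on GRCm38.p6, the assembly of build mm10. Their chromatin accessibility was read from ATAC-seq peaks, where a transposase cuts open DNA, in female C57BL/6 germ cells at embryonic day 15.5. The cells had been sorted by an Oct4-EGFP reporter. The 4 libraries comprised 2 labelled Control and 2 labelled Snf5 CKO, the latter a conditional knockout of the SWI/SNF remodelling subunit that Smarcb1 encodes. The sources used here give neither the Cre driver, nor the alleles of the controls, nor how many embryos went into a library. Nothing says that the replicates came from separate animals, so p-values may measure technical spread.

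In meiotic prophase each chromosome forms a protein axis from which loops of chromatin emerge, and the synaptonemal complex then joins the axes of homologous chromosomes along their length. SYCP2 and SYCP3 build the axis, HORMAD1 and HORMAD2 mark the axes that are not yet joined, and SYCP1 forms the transverse filaments that bridge the gap. SYCE1, SYCE2, SYCE3 and TEX12 form the central element in the middle of the bridge. SYCP2L is a paralogue of SYCP2 known from oocytes. Female germ cells enter this prophase in the fetal ovary, and in cells without meiosis many of these genes are kept silent by DNA methylation and by the PRC1.6 repressor, which contains E2F6 and the E-box factors MGA and MAX.

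Peaks had been called by the authors in each library separately. The lists held 28625 to 45422 peaks, with read depth unknown, so a missing peak may lie below what a library could detect. A gene was called open when any peak overlapped, by 1 bp or more, the span of 1 kb on each side of its annotated start or end. At the ends of Smarcb1, the targeted gene, peaks summed to 929 and 1139 bp in the controls and no peak was called in the knockouts. Of 8 germ cell markers, 7, 6, 7 and 7 were open in Control 1, Control 2, Snf5 CKO 1 and Snf5 CKO 2. Ddx4, Dazl, Dppa3, Kit, Pou5f1 and Mael were open in all 4 libraries, Nanos3 in Control 1 alone, and Tfap2c in the knockouts alone (751 and 350 bp). Dppa3 was longer in the knockouts, at 562 and 409 bp against 200 and 268 bp. All 7 markers of ovarian supporting cells had a peak in every library. Markers of stroma were open at 5, 5, 4 and 2 of 7 genes: Col1a1 and Maf in every library, Nr2f2 and Tcf21 in all but Snf5 CKO 2, Wnt5a in the controls alone, and Pdgfra and Col3a1 in none. Those of endothelium and blood were open at 3, 2, 2 and 2 of 8 genes. Kdr and Spi1 had peaks in every library, Pecam1 in Control 1 alone, and Gata1, Ptprc, Cdh5, Tie1 and Hbb-bt in none. An open gene end does not show that a gene is expressed, and the part of other cells in the results was not tested.

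Of the 10 genes, 9 had a peak at their start in all 4 libraries and 1, Sycp2l, had none in any. No member was lost (open in both controls, closed in both knockouts) and none was gained in the reverse sense. Over all genes, 55.0% were open in all 4 libraries and 33.6% in none. Where both controls were open, 89.6% of genes were also open in both knockouts and 4.84% were lost, and among genes closed in both controls, as Sycp2l was, 0.534% were gained. At each of the 9 the peak covered an annotated start in every library. The groups thus differed in the length of the called peak, not in whether a peak was called. The caller's −log10 q for the start peak was lower in both knockouts than in both controls at every open member but Sycp3. The share of all genes with this order was not counted, so it cannot be read as particular to the members. At Sycp2 it was 26.3 and 18.7 in the controls and 5.73 and 8.45 in the knockouts. At Sycp3 it was 7.69 in Control 2 and 11.3 in Snf5 CKO 2. With read depth unknown, whether the open DNA itself reached less far was not tested.

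The DNA just before these starts was read from the RefSeq promoter table (GRCm38.p6), which had an entry for all 10 members and for 17492 protein-coding genes. An entry runs from 250 bases before to 50 bases after a start. The letters CACGTG, the E-box bound by MGA and MAX, were found in the entries of 5 members: Sycp1, Sycp3, Syce2, Tex12 and Hormad1. They occurred at 8.91% of all genes and at 12% of the 9847 genes with a start peak in all 4 libraries. The letters GCGGGAA on either strand, which fit the E2F family, were found at Sycp3, Syce2, Tex12 and Hormad1, against 6.84% of all genes and 10.5% of those with a start peak. These 4 members thus carried both, as did 0.806% of all genes and 1.25% of genes with a start peak. The NRF1 palindrome, a match of 10 letters, was found at Syce1 and Hormad1, against 1.47% and 2.48%.

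The 250 bases before the first annotated start are shown 5′ to 3′ for members that carry these letters and for Sycp2l, which had no peak. Capitals mark the E-box and the E2F letters and, at Hormad1 and Syce1, the NRF1 palindrome.
Hormad1 (chr3:95559427-95559676, plus strand): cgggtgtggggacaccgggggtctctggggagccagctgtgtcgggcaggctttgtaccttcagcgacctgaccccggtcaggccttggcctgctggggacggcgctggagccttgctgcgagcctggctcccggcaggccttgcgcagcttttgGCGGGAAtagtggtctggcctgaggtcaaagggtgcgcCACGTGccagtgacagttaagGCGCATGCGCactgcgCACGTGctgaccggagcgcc
Sycp3 (chr10:88459337-88459586, plus strand): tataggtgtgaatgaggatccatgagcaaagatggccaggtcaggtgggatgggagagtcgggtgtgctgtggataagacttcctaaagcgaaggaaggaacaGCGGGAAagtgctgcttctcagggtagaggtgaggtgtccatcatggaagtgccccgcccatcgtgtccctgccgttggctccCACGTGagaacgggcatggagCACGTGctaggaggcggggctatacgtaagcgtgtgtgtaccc
Tex12 (chr9:50561269-50561518, minus strand): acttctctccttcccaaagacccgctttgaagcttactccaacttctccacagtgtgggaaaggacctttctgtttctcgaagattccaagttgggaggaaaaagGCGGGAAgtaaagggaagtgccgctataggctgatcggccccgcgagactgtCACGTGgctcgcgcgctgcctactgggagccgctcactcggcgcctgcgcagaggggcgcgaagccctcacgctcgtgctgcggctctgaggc
Sycp1 (chr3:102936101-102936350, minus strand): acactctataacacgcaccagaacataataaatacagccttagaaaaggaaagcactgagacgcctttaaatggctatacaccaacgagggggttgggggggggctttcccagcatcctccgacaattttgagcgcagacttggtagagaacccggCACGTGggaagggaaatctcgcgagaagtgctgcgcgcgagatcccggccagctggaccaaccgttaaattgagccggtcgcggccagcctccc
Syce1 (chr7:140787855-140788104, minus strand): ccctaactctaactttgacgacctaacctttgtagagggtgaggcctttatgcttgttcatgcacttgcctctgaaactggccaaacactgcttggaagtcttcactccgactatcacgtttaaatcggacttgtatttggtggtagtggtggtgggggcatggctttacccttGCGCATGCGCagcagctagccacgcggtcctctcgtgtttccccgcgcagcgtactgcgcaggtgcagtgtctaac
Sycp2l (chr13:41114169-41114418, plus strand): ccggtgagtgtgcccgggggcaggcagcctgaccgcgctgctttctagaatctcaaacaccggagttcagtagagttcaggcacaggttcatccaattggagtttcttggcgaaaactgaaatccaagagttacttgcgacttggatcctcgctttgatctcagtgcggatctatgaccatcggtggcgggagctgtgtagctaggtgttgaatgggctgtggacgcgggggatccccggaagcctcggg

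Hormad1 and Sycp3 each held 2 E-boxes within 64 bases of the start, with the GCGGGAA letters farther out. The bases before Sycp2l held none of the 3 motifs. The matches at Syce2 lay before its second annotated start, 84872258, inside the gene from the first, 84872111. CNCCTCAG, letters linked to STRA8, occurred in the entries of Sycp1, Syce2, Tex12 and Hormad2, against 9.86% of all genes and 11.0% of those with a start peak, and its match at Syce2 overlapped the GCGGGAA match. The CRE letters TGACGTCA were found at no member, at 2.54% of all genes and at 3.81% of those with a start peak. GGGCGG, the GC box, was found at 5 of 10 members, 49.2% of all genes and 72.5% of genes with a start peak. A match is a run of letters, not a measured binding site.

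Every one of the 17 matches to these motifs other than the GC box was covered by a peak in all 4 libraries, among them 7 E-box and 4 E2F matches. Their first bases lay between −147 and 32 bases of an annotated start. Peaks covered an annotated start at these members, so this cover adds little to that, and its share over all genes was not counted. The shortest peak at a member, 215 bp at Tex12 in Snf5 CKO 1, spanned the E-box and the E2F letters of that gene. The entries of the members had a median of 16 CpG and 60.7% GC, beside 22 CpG and 62.0% GC for genes with a start peak in all libraries and 13 CpG and 56.3% GC for all protein-coding entries. Within the members the CpG count ran from 5, at the first start of Syce3, to 33, at the second start of Syce2.

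**Figure D1:**
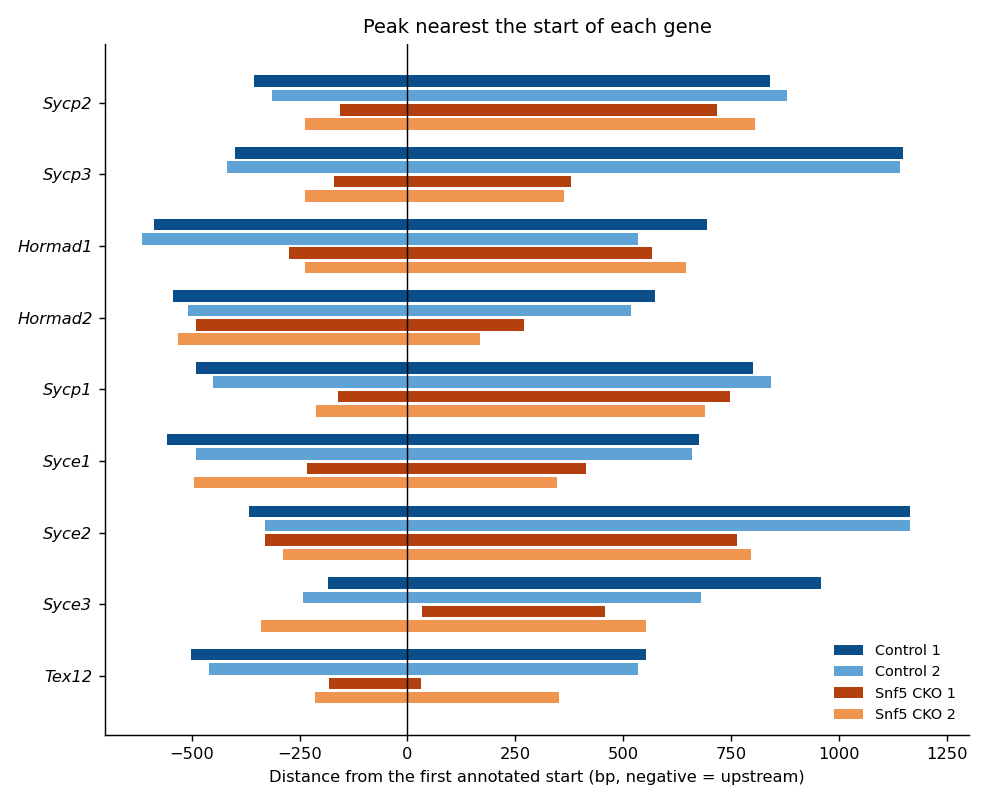
Extent of the peak nearest the first annotated start for the 9 open members, as distance from that start in bp (horizontal axis), 1 bar per library. Bars of the controls reach farther than those of both Snf5 CKO libraries on 1 or both sides, and at Sycp3 they end 1148 and 1140 bp inside the gene against 379 and 362 bp. The separate second Sycp3 peak of Snf5 CKO 1 is not drawn.

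Among the axis genes, Sycp3 had the largest difference. SYCP3 is a structural protein of the axis that is widely used to stain it. The gene lies on chromosome 10, 88459587 to 88473236 (gene identifier 20962). Peaks at its gene ends summed to 1549 and 1558 bp in the controls and to 840 and 601 bp in the knockouts. The controls were nearly equal and both knockouts lay far below them. In the controls 1 unbroken peak ran from about 400 bp before the start to 1148 and 1140 bp inside the gene. Snf5 CKO 1 instead had a peak of 550 bp around the start and a separate one of 290 bp farther in, from 88460460 to 88460749. Snf5 CKO 2 had the peak around the start alone. The log2 length, Snf5 CKO minus Control, was −1.13 (SE 0.20, 95% interval −1.67 to −0.58, n = 2 and 2, limma adjusted p = 0.0507), just outside the threshold of 0.05. For the peak nearest the start alone, a measure added after the data were seen, it was −1.43 (SE 0.11, limma adjusted p = 0.0361). Over its 16 alternatives the adjusted p of Sycp3 ran from 0.0360 to 0.269.

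Sycp2 encodes the axis partner of SYCP3 and lies on chromosome 2, 178345295 to 178407776 (gene identifier 320558). Its lengths were 1195 and 1194 bp in the controls against 874 and 1044 bp in the knockouts. The groups did not overlap, but the change was the second smallest among the members, −0.32 on the log2 scale (SE 0.14, 95% interval −0.71 to 0.06, limma adjusted p = 0.152). The interval includes 0, and without Snf5 CKO 1 the difference was −0.19.

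Hormad1 and Hormad2 encode related HORMA-domain proteins of the axis. Hormad1 lies on chromosome 3, 95559677 to 95587863 (gene identifier 67981). Peaks at both of its ends summed to 1845 and 1779 bp in the controls and to 1596 and 1666 bp in Snf5 CKO. This sum mixes 2 places: the far end of Hormad1 lies next to the annotated start of Golph3l, a gene for a Golgi protein, and the peak there lies within 1 kb of both genes. The peak at the Hormad1 start alone measured 1280 and 1150 bp in the controls and 841 and 884 bp in Snf5 CKO. The peak at its far end measured 565 and 629 bp in the controls and 755 and 782 bp in Snf5 CKO, so that the start was shorter and the far end longer in both knockout libraries. The log2 difference was −0.15 over both ends (SE 0.11, limma adjusted p = 0.324) and −0.49 at the start peak (SE 0.12, limma adjusted p = 0.0664).

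Hormad2, on chromosome 11, 4345801 to 4441198 (gene identifier 75828), had lengths of 1118 and 1026 bp in the controls against 760 and 700 bp in the knockouts. All 4 values came from the start. The log2 difference was −0.55 (SE 0.12, 95% interval −0.89 to −0.21, limma adjusted p = 0.0624). Here the peak was shorter on the side of the gene. Its upstream edge lay 544 and 508 bp before the start in the controls and 490 and 532 bp in Snf5 CKO, while its downstream edge fell from 573 and 517 bp inside the gene to 269 and 167 bp.

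Sycp1, which encodes the transverse filament protein, lies on chromosome 3, 102818499 to 102936100 (gene identifier 20957). Its peak measured 1291 and 1295 bp in the controls against 907 and 901 bp in the knockouts. The replicates of each group were nearly equal and the groups stood well apart, at means of 1293 and 904 bp. The log2 difference was −0.52 (SE 0.11, 95% interval −0.82 to −0.22, limma adjusted p = 0.0597). At Sycp1 most of the lost length lay upstream: the outer edge was 490 and 451 bp before the start in the controls and 160 and 211 bp in Snf5 CKO.

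Among the 4 central element genes, Syce3 and Tex12 had the largest standard errors of all open members. Syce1, on chromosome 7, 140777229 to 140787854 (gene identifier 74075), measured 1231 and 1149 bp in the controls and 646 and 842 bp in Snf5 CKO (log2 difference −0.69, SE 0.18, limma adjusted p = 0.0704). Syce2, on chromosome 8, 84872111 to 84887446 (gene identifier 71846), measured 1532 and 1496 bp in the controls and 1094 and 1085 bp in Snf5 CKO (−0.47, SE 0.11, limma adjusted p = 0.0650). The Syce2 peak was the tightest between replicates of this class, and its downstream edge moved from 1164 bp inside the gene in both controls to 763 and 795 bp.

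Syce3 lies on chromosome 15, 89390174 to 89410503 (gene identifier 75459). Its peaks were 1143 and 921 bp long in the controls against 426 and 892 bp in the knockouts. The second knockout library was thus close to the second control, and the low mean of the knockout rested on Snf5 CKO 1. There the peak began 33 bp inside the first annotated start, at 89410503, and covered the second annotated start, at 89410263. The log2 difference was −0.74 with a wide interval, −1.82 to 0.35 (SE 0.40, limma adjusted p = 0.212). It was −0.20 without Snf5 CKO 1 and −1.27 without Snf5 CKO 2.

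Tex12 encodes a small protein that assembles with SYCE2, and lies on chromosome 9, 50557148 to 50561268 (gene identifier 66654). It had the lowest length of any open member in each Snf5 CKO library. The peak measured 1055 and 994 bp in the controls against 215 and 567 bp in the knockouts. Both knockout values were below both controls, and they differed widely from each other. The log2 difference was −1.55 (SE 0.50, 95% interval −2.91 to −0.20, limma adjusted p = 0.0962). It was −0.85 without Snf5 CKO 1, where it passed (limma adjusted p = 0.0472, range over 16 alternatives 0.0472 to 0.357), and −2.25 without Snf5 CKO 2. In Snf5 CKO 1 the peak ended 32 bp inside the gene, where the others reached 352 to 553 bp.

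**Figure D2:**
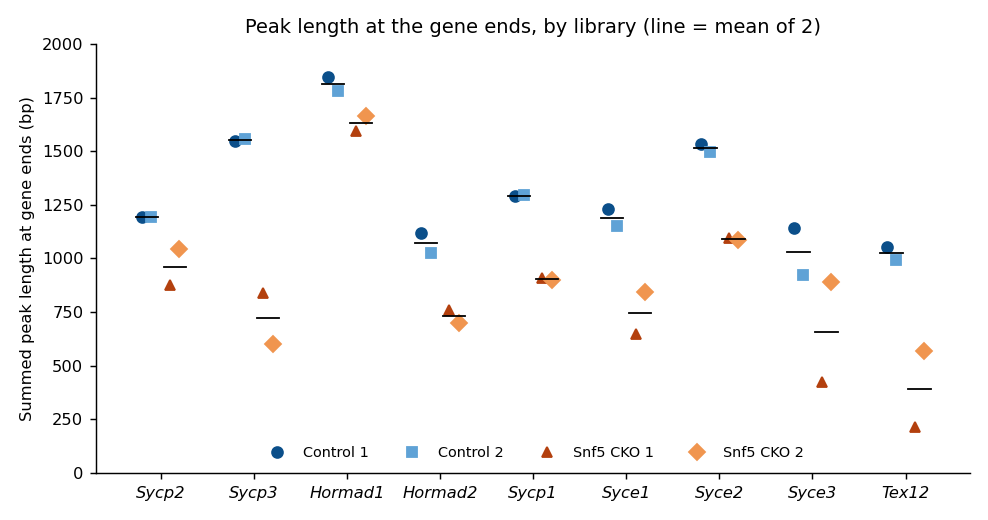
Summed length in bp of the peaks touching the 1 kb windows at both gene ends (vertical axis), 1 point per library and a line at the mean of each group. Both Snf5 CKO points lie below both control points at each of the 9 genes, most narrowly at Syce3 (892 against 921 bp), and the Hormad1 values include the peak shared with Golph3l.

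Across the 9 open members, the peaks of both knockouts were below those of both controls at 9, where 77.3% of the 12030 genes open in all 4 libraries showed the same order. The order is thus that of most open genes. Members' lengths had medians of 1231 and 1194 bp in the controls and 840 and 892 bp in Snf5 CKO, beside 1171, 1151, 882.5 and 826 bp over all genes. For the start peak alone the order also held at 9 of 9 members, against 78.5% of 9847 genes.

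The test was a limma fit over all 12030 genes. No member passed an adjusted p of 0.05, where 8.06% of all genes passed as shorter and 0.0333% as longer. The 970 shorter genes became 0 without Control 1, Control 2 or Snf5 CKO 2 and 1678 without Snf5 CKO 1, where 2 members, Sycp3 and Tex12, passed. At an unadjusted p of 0.05, 6 of the 9 members were shorter (Sycp1, Sycp3, Syce1, Syce2, Tex12 and Hormad2), against 42.5% of all genes. For the start peak alone 7 of 9 were shorter at an unadjusted p of 0.05, against 43.4%, and 1, Sycp3, passed after adjustment, against 7.91%. The median log2 difference was −0.55 over the members and −0.41 over all genes tested, and 7 of the 9 members lay below the median of all genes. An exact permutation test of 1 gene with 2 libraries against 2 cannot go below 0.33.

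Because peaks were shorter at most genes, the members were also set against that shift. With each library centred on its median over all genes, the limma fit put Sycp3 at −0.69 (adjusted p = 0.233) and Tex12 at −1.11 (adjusted p = 0.357). Syce1 lay at −0.25 (limma adjusted p = 0.551) and Syce3 at −0.29 (limma adjusted p = 0.74). Sycp1, Syce2 and Hormad2 lay between −0.11 and −0.03, so their shorter peaks were of the size of the general shift. Sycp2 and Hormad1 turned to 0.12 and 0.29, and neither passed. After centring 1 of 9 members, Sycp3, was shorter at an unadjusted p of 0.05, where 9.14% of all genes were, and 0.00% of the 12030 passed after adjustment. In the uncentred fit, 7.02% of all genes had a larger fall than Sycp3 and 2.12% a larger one than Tex12.

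**Figure D3:**
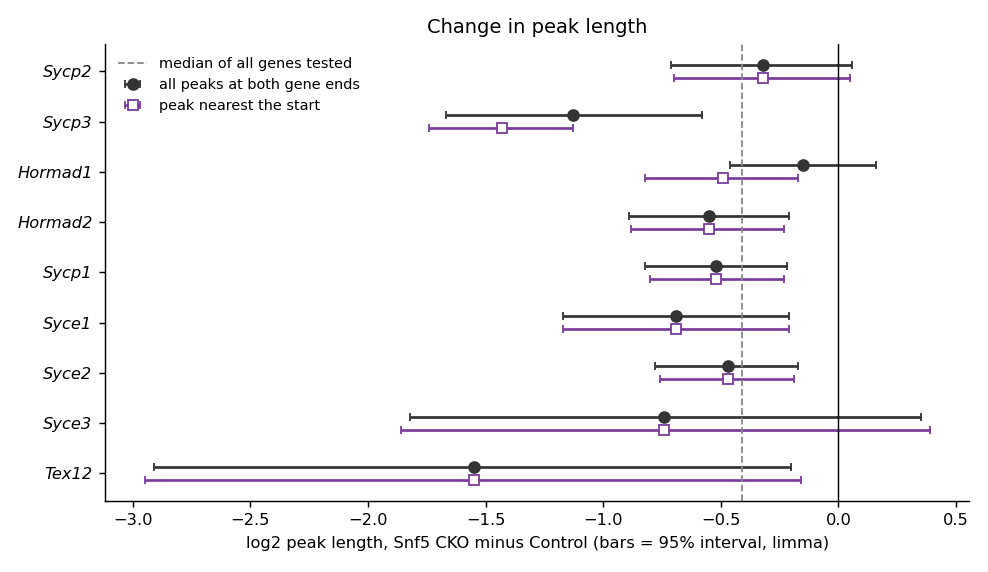
Difference in log2 peak length, Snf5 CKO minus Control (horizontal axis), with 95% intervals from limma, for all peaks at both gene ends (filled circles) and for the peak nearest the start (open squares). Most intervals include the median of all genes (dashed, −0.41), those of Sycp3 lie wholly below it, and the 2 measures part at Hormad1 (−0.15 and −0.49).

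The start peaks did not shrink evenly on their 2 sides. Only the peak nearest the start was measured here. At Sycp3 that leaves out the second peak of Snf5 CKO 1, which ended 1162 bp inside the gene, beyond both controls. The downstream edge, the one inside the gene, was nearer the start in both Snf5 CKO libraries than in both controls at 8 of 9 members, all but Hormad1, against 70.9% of the 9847 genes with a start peak in every library. The upstream edge was nearer at 6 of 9 (Sycp1, Sycp2, Sycp3, Syce2, Tex12 and Hormad1), against 55.6%. Both edges had moved in at Sycp1, Sycp2, Sycp3, Syce2 and Tex12, against 39.9% of genes. The median difference between group means was 313 bp downstream and 159.5 bp upstream for the members, and 158.5 and 90.5 bp for all genes.

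The members fell into 3 forms by edge. At Sycp1 and Hormad1 the upstream side accounted for most of the difference, with mean retreats of 285 and 345 bp upstream against 104 and 7.5 bp downstream. At Sycp3, Syce1, Syce2, Syce3 and Hormad2 the downstream side did, from 286.5 bp at Syce1 to 773.5 bp at Sycp3, against 15 bp at Hormad2 to 204.5 bp at Sycp3 upstream. Sycp2 and Tex12 shortened on both sides to a like degree, by 136.5 and 99 bp at Sycp2 and by 282.5 and 351 bp at Tex12. These forms were set after the values were seen and are a description of 2 libraries per group.

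Fold enrichment over the local background, as the authors' caller gave it for each whole broad peak, was compared only within each list. It is not a height at a summit, and its relation to peak length was not tested. Values at the members' start peaks ran from 4.31 to 5.98 in Control 1, 3.85 to 6.19 in Control 2, 4.05 to 6.46 in Snf5 CKO 1 and 3.66 to 7.57 in Snf5 CKO 2. Hormad2 had the highest value of the members in both Snf5 CKO lists, 6.46 and 7.57, and Syce3 had it in both control lists, 5.98 and 6.19. Among the 9847 start peaks of a list, Hormad2 stood above 63.5% and 80.1% in the controls and above 76.5% and 95.3% in Snf5 CKO. Hormad1 stood above 51.3% and 56.0% in the controls and above 20.6% and 8.52% in Snf5 CKO. Sycp3 stood above 21.9% in Snf5 CKO 1 and 84.8% in Snf5 CKO 2, so a rank could differ widely between replicates. Shorter peaks were thus of high and of low rank alike, and no test was made of fold enrichment.

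Each gene was also searched with 10 kb on either side. The 27 merged regions found in this span, joined wherever peaks of any libraries overlapped by 1 bp, comprised the 9 at the starts and 18 elsewhere. Of those 18, 4 were present in all libraries, 1 was lost, 1 was gained and 12 had another pattern, 9 of them with a peak in a single library. Over all 66058 regions of the series 29.4% were kept, 7.58% lost, 5.08% gained and 44.3% held by 1 library. Of the 4 kept regions, 3 lay at the starts of neighbouring genes: Golph3l beyond Hormad1, Gcdh beyond Syce2, and Ppp1r3d with Fam217b before Sycp2.

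The gained region lay inside Syce3, 7.7 kb from its start, at chromosome 15, 89402479 to 89402767. Its peaks measured 260 bp with a fold enrichment of 5.2 in Snf5 CKO 1 and 220 bp with 5.74 in Snf5 CKO 2, and neither control had one. The lost region lay beyond the far end of the same gene, at 89387726 to 89387974, with peaks of 200 and 222 bp and fold enrichments of 3.43 and 2.94 in the controls. All 4 of these peaks were short. Their −log10 q was 5.69 and 6.69 in Snf5 CKO 1 and 2 at the gained region, and 3.14 and 1.52 in Control 1 and 2 at the lost one. The Control 2 peak would thus not meet the alternative filter of a −log10 q of at least 3. No other member had a lost or gained region within 10 kb.

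Sycp1 had the most peaks within its body, 6 regions over 117602 bp besides the start. Only 1, at 102832647 to 102833490, which is 102.6 kb from the start, was present in all libraries. It measured 520 and 517 bp in the controls and 735 and 490 bp in Snf5 CKO, so that the knockout values lay on both sides of the control values. Another at 69.5 kb was found in Control 2 and both Snf5 CKO libraries, and the others each in 1 control. In Hormad2 a region 84.9 kb from the start was found in both controls and Snf5 CKO 1. A region upstream of Hormad2, at 4450970 to 4451658, was found in Control 2 and both Snf5 CKO libraries, with fold enrichments of 3.57, 5.44 and 4.81.

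The regions at neighbouring starts gave values measured in the same way. The Gcdh peak was shorter in Snf5 CKO, 664 and 763 bp against 1121 and 1084 bp in the controls. At Ppp1r3d and Fam217b, which share a start region, the peak measured 1673 and 1768 bp in the controls and 737 and 1226 bp in Snf5 CKO. Golph3l was the exception, its peak being longer in both Snf5 CKO libraries. For lengths summed over both gene ends, a different measure, 1.27% of the 12030 genes open in every library showed this order.

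**Figure D4:**
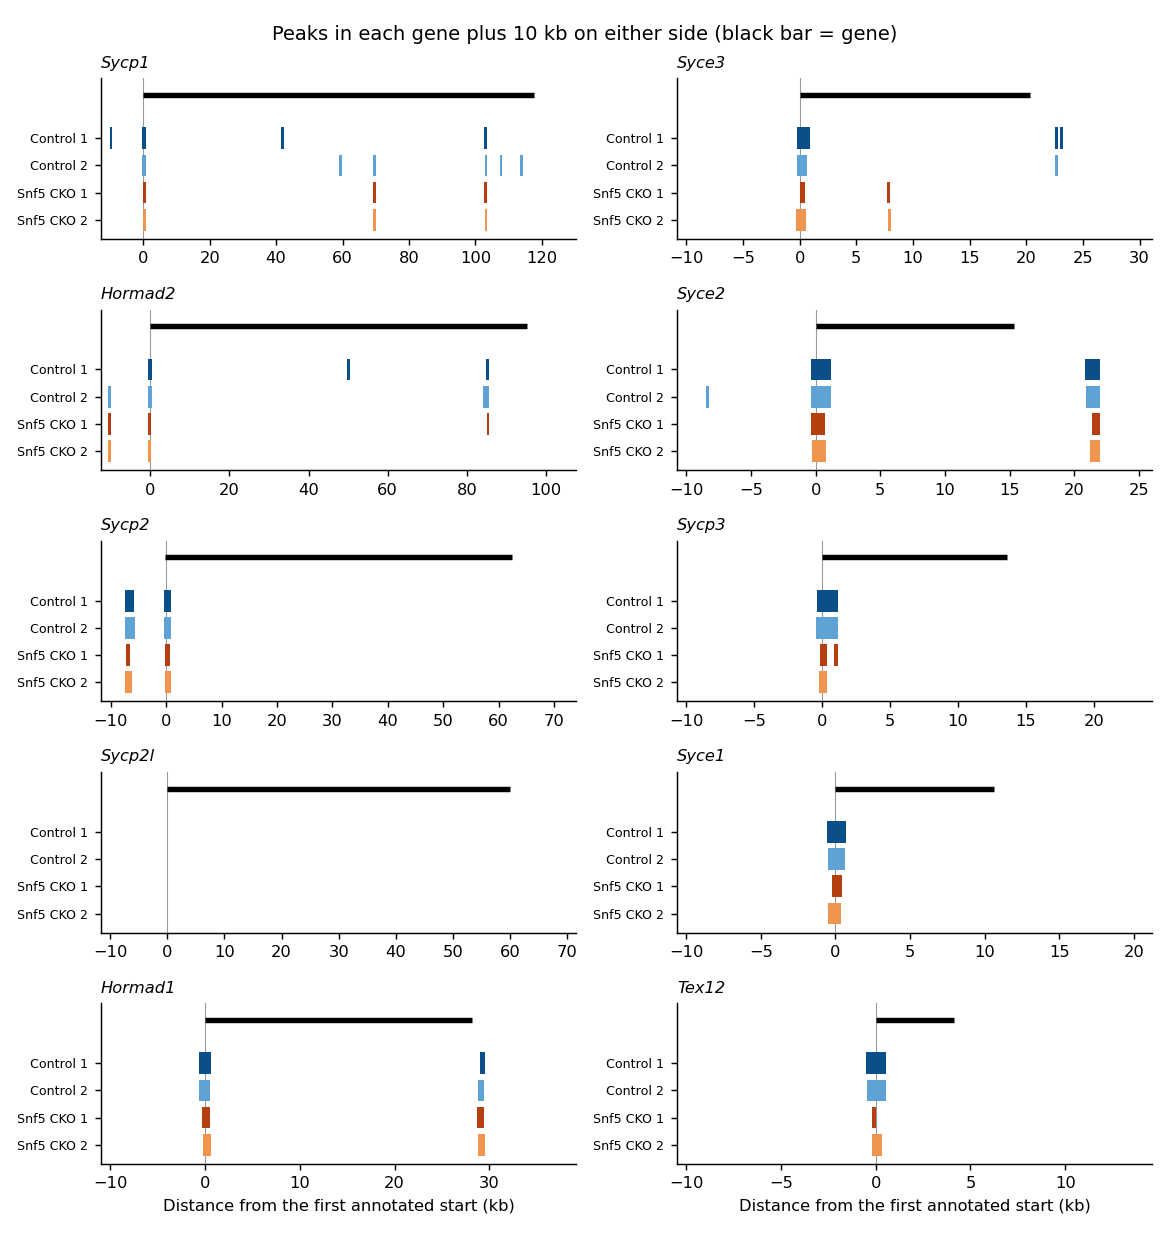
Peaks of each library in the 10 genes plus 10 kb on either side, as distance from the first annotated start in kb (horizontal axis; the span differs between panels), with the gene as a black bar and narrow peaks drawn at a minimum width. All open members have a peak at or beside 0 in every library, Syce3 has a peak 7.7 kb inside in the Snf5 CKO libraries alone, and the Sycp2l panel is empty.

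Sycp2l, on chromosome 13, 41114419 to 41174351 (gene identifier 637277), had no peak in any library at its ends, in its body or within 10 kb. Over all genes 17.1% had none in this wider span. The nearest regions were 34.6 kb before its lower end, at Mak, and 45.4 kb beyond its higher end, at Elovl2, and both of these were present in all 4 libraries. The calls do not show whether weaker accessibility was present at Sycp2l.

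Other genes of the pathway were taken as 3 lists of 22 genes in all. These were 5 cohesins of the axis, 8 partners of the complex and axis, and 9 crossover factors that act on the complex. The gene Spo16 had no match in the gene table, and 16 of the other 21 had peaks at their ends in all 4 libraries. Ccnb1ip1, a crossover gene, was open in all but Snf5 CKO 2, and no gene of the lists was lost or gained. Stag3 (cohesin), Fkbp6 (an immunophilin), Skp1a (a ubiquitin ligase subunit, found as Skp1) and Shoc1 (a crossover factor) had no peak at their gene ends. Annotated starts can lie inside a gene: at theirs, Stag3, Fkbp6 and Skp1 had peaks in all 4 libraries. The cohesin gene Rad21l showed the reverse, with peaks at its gene ends in all 4 libraries and none at its annotated start. Of the 17 listed genes with a start in the promoter table, 15 had a peak there in every library, as 9 of 10 members did, against 57.6% of all genes with a start.

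Among the 16 genes tested at their ends, both Snf5 CKO libraries were shorter at 11, against the 77.3% given above. The median log2 difference was −0.60, and 3 passed as shorter by limma and none as longer, against 8.06% and 0.0333% of all genes. Those were Iho1, which encodes a HORMAD1 partner of break formation, Hsf2bp and Tex11. Iho1 (listed as Ccdc36 in older tables) measured 1031 and 899 bp in the controls and 489 and 401 bp in Snf5 CKO (log2 difference −1.12, limma adjusted p = 0.0430). Tex11, a crossover gene, measured 1028 and 905 bp in the controls and 316 and 357 bp in Snf5 CKO (−1.52, limma adjusted p = 0.0399). For Hsf2bp, a recombination gene, peaks at the gene ends summed to 2125 and 1859 bp in the controls. In Snf5 CKO they summed to 203 and 296 bp (log2 difference −3.02, limma adjusted p = 0.0399). The control sums took in peak length away from the annotated start, and those of Snf5 CKO did not. At the annotated start of Hsf2bp alone the peaks measured 698 bp in both controls and 203 and 296 bp in Snf5 CKO (−1.51, limma adjusted p = 0.0373).

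At annotated starts alone, both knockouts were shorter at 9 of 9 members and 11 of 15 listed genes, against 79.2% of 10079 genes. Of the listed genes 4 passed as shorter (Smc1b, Iho1, Hsf2bp and Hfm1), and 1 of the 9 members did, Sycp3 (limma adjusted p = 0.0442), against 13.1% of the genes tested. Stag3 measured 1406 and 1391 bp in the controls and 759 and 1092 bp in Snf5 CKO there (−0.62, limma adjusted p = 0.0932). Rec8, the meiotic kleisin subunit of cohesin, showed no such order, with 767 and 616 bp in the controls and 855 and 641 bp in Snf5 CKO. Trip13, which removes HORMAD proteins from joined axes, measured 1201 and 969 bp against 1159 and 897 bp. The genes of these lists closest to the median member in log2 length over the 4 libraries were Msh5, Six6os1 and Hfm1, at Euclidean distances of 0.246, 0.275 and 0.289.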

How the data were processed

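The authors deposited 1 broad peak list for each of the 4 libraries. The submitters' processing notes name MACS2 2.2.7.1, Bowtie2 2.4.2, Picard 2.25.2, SAMtools 1.10, Trim Galore 0.6.5 and build mm10, without roles. Reads were 50 bp long, per the labels. The sources used here state no peak threshold, handling of duplicates or shift of read ends. The deposited score is the whole part of 10 times the −log10 q. The deposited fold is the enrichment of a peak over its local background, and the deposited −log10 p and −log10 q are the caller's. Fold and −log10 q only described or filtered peaks within a list. Read counts were not used, so depth is unknown.

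Peak starts were made 1-based. For every protein-coding gene the lengths of all peaks touching 1 kb on each side of either RefSeq gene end were summed. Log2 sums of genes with a peak in all 4 libraries entered limma 3.58.1 (R 4.3.3, Benjamini-Hochberg over all such genes, threshold 0.05). The fit was run on simulated data with 200 of 12030 genes changed. It recovered 100% of log2 changes of −2 and 95% of those of −1, with 7 false calls. The simulation had no shift over most genes, so it does not test the calls under the shift seen here. Its variances also differed less between genes than those of the data, so recovery in the data may be lower. Starts and strands came from the RefSeq promoter table, and motifs were matched exactly on both strands. Groups came from the labels. The members, lists, tests and naming rule (all members, every wide region, listed genes that were not kept, and the nearest 3 by profile) were chosen with earlier results of these data known. Named pathway genes outside that rule were chosen after their values were seen. Alternatives were other windows, filters, centring, a replicate block and leaving out each library.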

Additional observations from a re-analysis of the deposited data

How the results depend on the processing

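The count of 9 members open in all libraries, with 0 lost and 0 gained, was the same under the 7 other windows, filters and region rules and without each library in turn. With a −log10 q of at least 3, the Hormad1 start peak of Snf5 CKO 2, at 2.81, was left out. In that library Hormad1 was then open only through the peak at its far end, next to Golph3l. Among 144 member lengths recomputed under 16 alternatives, 129 kept direction and side of the threshold, 13 newly passed and 2 reversed: with library medians centred, Sycp2 became 0.12 and Hormad1 0.29.

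No member passed in the limma fit as planned. With windows of 500 bp, at the annotated start alone, with lists of the same length, 200 bp covered, the whole-region rule or the start peak alone, 1 passed, with a −log10 q of at least 3, 2 passed, and with a trend in the prior variance, 3 passed. Leaving out a library gave 0 to 2. Sycp3 was among those that passed in 9 of 16 alternatives, its adjusted p running from 0.0360 to 0.269, and Tex12 passed without Snf5 CKO 1. With windows of 500 bp 8 members had both Snf5 CKO libraries shorter, against 9 in every other setting where this was counted.

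Over all genes 970 were shorter and 4 longer. Shorter genes numbered 1521 with a −log10 q of at least 3, 2176 with the trend, and 0 with covered bases in place of whole peaks or with medians centred. Longer genes numbered 2 with 2 kb windows, 11 with the trend, 1 for the start peak alone, and 0 with covered bases or centring. Leaving out a library gave 0 to 1678 shorter and 0 to 4 longer genes: 0 without Control 1, Control 2 or Snf5 CKO 2, and 1678 without Snf5 CKO 1. A lone library was then taken to vary like the other group. The cause of these changes was not tested.

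With the replicate number as a block, 0 members, 0 shorter genes and 0 longer genes passed. The numbers did not pair the libraries by the labels, and the replicate differences of the groups correlated at −0.0138 over 12030 genes. With depth unknown, a length cannot be scaled by it.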
